A study of Mus musculus with 4 samples.

Results

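The genes described here are the C-type lectins whose symbol starts with Clec, the numbered Toll-like receptors, the adaptor Myd88 and the coreceptor Cd14. They were found on 4 one-colour Agilent mouse arrays through the accession of each probe. Of 48 such symbols in the RefSeq table, 36 had a matched probe (26 Clec genes, 8 Tlr genes, Myd88 and Cd14), among 17016 named genes in all. The symbols Clec2f, Clec2j, Clec2l, Clec4a4, Clec4b2, Clec7a, Clec9a, Clec12b, Tlr5, Tlr11, Tlr12 and Tlr13 were not analysed here.

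The arrays came from 4 groups of mouse skin samples, each of 3 animals by the study's design. The tail treated group received methyl aminolevulinate cream (Metvix), 2.5 h in darkness and red light of 636 nm at 10 J/cm2, and the tail control group had no treatment. The back treated group received the same cream and light at 2.5 J/cm2 on shaved skin, and the back control group had no treatment. Whether control backs were shaved, and the strain, sex and age of the mice, are not given in the sources used here. Tissue was taken 48 h after the light. Each group had 1 array, and pooling of the animals is not stated. Differences between groups therefore could not be set against a spread between samples or tested.

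Toll-like receptors recognise molecules of microbes and of damaged tissue, and most of them signal through Myd88 to NF-kB. Several C-type lectins do the same for sugars and lipids through the kinase Syk and the adaptor Card9. In skin, both families are carried by macrophages, dendritic cells and neutrophils, and some members by keratinocytes. Clec2 proteins are ligands of receptors on natural killer cells.

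The 75th percentile of the signal was 909 on the tail treated array, 7261 on the tail control array, 1204 on the back treated array and 1860 on the back control array. Levels are therefore given as a percent of each array's 75th percentile, and differences as log2 values of treated minus control. Members that differed by 2-fold or more count as higher or lower. For a member not well above background on 1 array of a pair, the difference is a bound. Levels of different genes come from different probes and are not compared. On the same arrays, 5 keratinocyte genes (Krt5, Krt14, Krt1, Krt10 and Perp) were saturated throughout, while 5, 5, 6 and 6 of 6 fibroblast genes and 5, 5, 4 and 4 of 5 skeletal muscle genes were well above background in the order tail treated, tail control, back treated and back control. The extraction protocol speaks of tail epidermis, and the sample labels of tail skin.

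Of the 36 members, 19 were well above background on all 4 arrays, 10 on some, and 7 on none. The 7 without a measurable level were Clec1a, Clec1b, Clec2m, Clec3a, Clec4a1, Clec12a and Tlr8. The plot of levels shows the other 29 members.

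**Figure D1:**
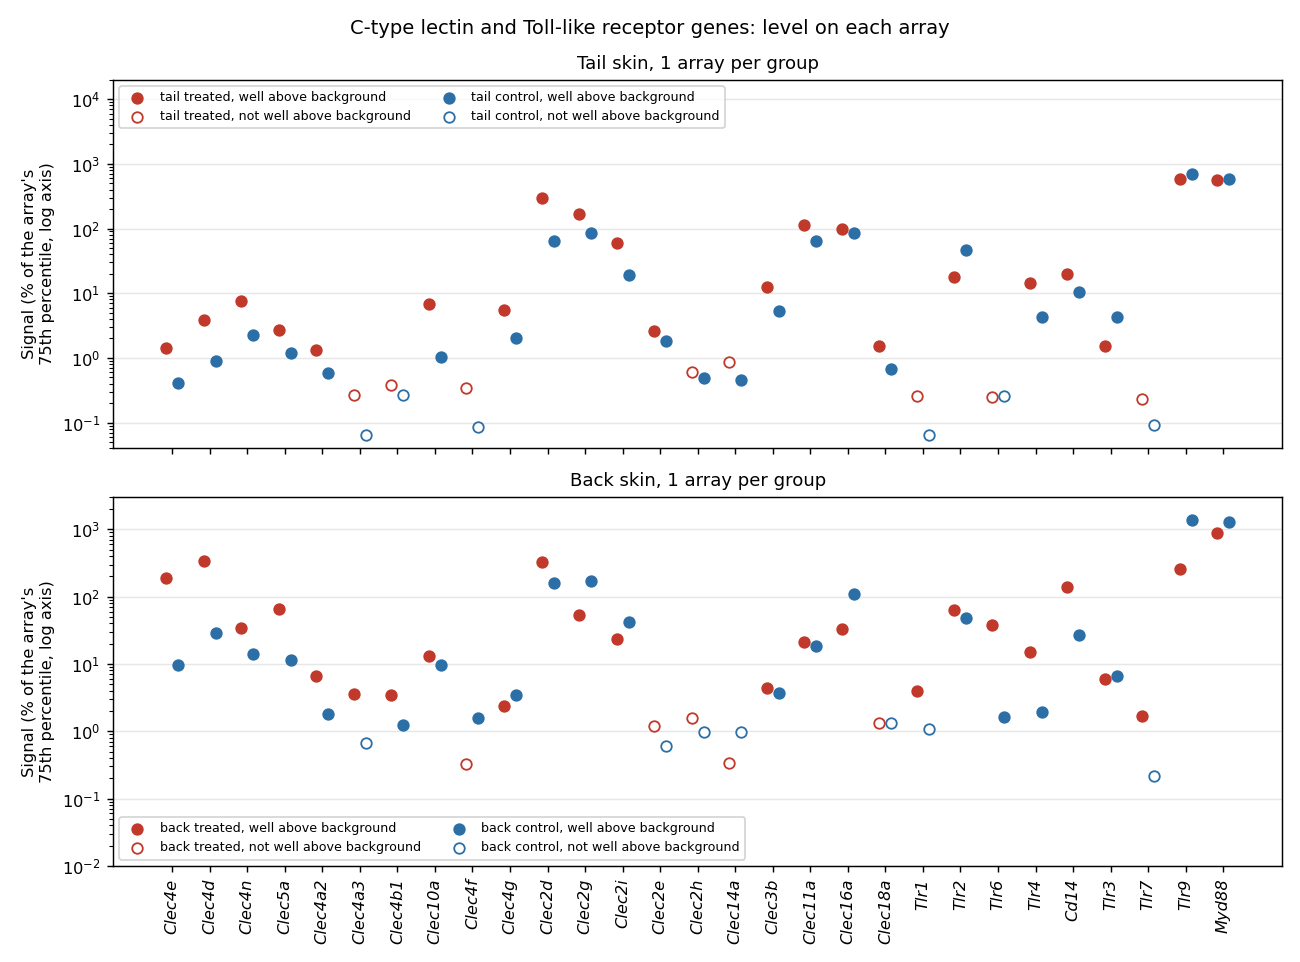
Signal of the 29 members that were well above background on at least 1 array, as a percent of the array's 75th percentile on a log axis, in tail skin (top) and back skin (bottom), with 1 array per group. Filled points were well above background and open points were not; Clec4e stands at 187% on the back treated array and 9.79% on the back control array.

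The promoters of 3 lectin genes that were higher in treated back skin and of Tlr9, which was lower, are shown as examples of members with large differences there. They are the 250 bases before the start of each gene in RefSeq, build GRCm38.p6, 5′ to 3′ on the gene's strand, and 28 of the 36 members had at least 1 such entry, 32 in all. Capitals mark matches, on either strand, to GAGGAA (the core that the myeloid factor PU.1 binds), TGANTCA (the AP-1 site) and the letters GGG, any 5 bases and CC (a loose NF-kB site). Clec4d lies at chr6:123261857-123262106 on the plus strand, Clec4e at chr6:123289872-123290121 on the minus strand, Clec5a at chr6:40585806-40586055 on the minus strand, and Tlr9 at chr9:106222348-106222597 on the plus strand.
Clec4d: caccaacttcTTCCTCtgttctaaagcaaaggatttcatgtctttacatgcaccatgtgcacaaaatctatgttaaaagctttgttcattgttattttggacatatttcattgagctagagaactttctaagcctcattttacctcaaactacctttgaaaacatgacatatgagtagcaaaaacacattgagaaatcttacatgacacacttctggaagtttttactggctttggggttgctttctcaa
Clec4e: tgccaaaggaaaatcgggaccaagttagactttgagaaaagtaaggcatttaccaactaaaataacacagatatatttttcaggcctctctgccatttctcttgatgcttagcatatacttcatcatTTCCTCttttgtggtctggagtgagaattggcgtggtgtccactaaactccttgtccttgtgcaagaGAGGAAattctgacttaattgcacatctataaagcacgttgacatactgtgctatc
Clec5a: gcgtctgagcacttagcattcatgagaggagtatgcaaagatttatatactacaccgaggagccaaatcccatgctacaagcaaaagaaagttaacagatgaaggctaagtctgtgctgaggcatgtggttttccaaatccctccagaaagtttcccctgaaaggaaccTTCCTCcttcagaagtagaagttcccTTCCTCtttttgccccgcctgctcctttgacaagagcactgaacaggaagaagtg
Tlr9: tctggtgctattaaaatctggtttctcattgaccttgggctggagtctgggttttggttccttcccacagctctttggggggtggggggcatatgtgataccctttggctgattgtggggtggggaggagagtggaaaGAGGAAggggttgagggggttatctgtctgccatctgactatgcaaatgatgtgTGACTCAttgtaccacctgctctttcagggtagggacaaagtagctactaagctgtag
GAGGAA matched once in Clec4d, at 2 places in Clec4e and in Clec5a, and once in Tlr9, which also held the AP-1 letters. Of the 32 promoters 14 held GAGGAA, against 23.3% of 32851 promoters in the table. TGANTCA was in 6 of the 32 and in 6.75% of all, and the NF-kB letters were in 6 of the 32 and in 45.8% of all. The promoter entries of Tlr6, the member with the largest back difference (4.54), are not shown and held no GAGGAA. A match is a description of these letters and not evidence of binding. Clec4d and Clec4e are next to each other in the RefSeq order and follow Clec4n, at the end of a run of 9 Clec4 genes.

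The comparison of treated with untreated back skin asked how the receptors stood 48 h after light. Among the higher members were Tlr6 (log2 difference 4.54), the lectins Clec4e (4.25) and Clec4d (3.56), Tlr4 (3.00) and Cd14 (2.40), and Tlr9 was lower (-2.39). In the back 25 members had a value, of which 12 were higher and 3 lower, and 13.5% and 12.8% of all genes passed the same fold in these directions. The median of the members was 0.63, against -0.01 over all genes. The other 11 members were not well above background on either array. Fewer cells of a type and less RNA per cell cannot be told apart in such tissue samples.

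Clec4e encodes Mincle, a receptor for mycobacterial glycolipid and for the SAP130 protein of dying cells. It had 187% of the 75th percentile in treated back skin and 9.79% in control back skin, a log2 difference of 4.25 (19.1-fold, scanner spot error 0.21). Its partner Clec4d had 345% in treated and 29.2% in control back skin, a log2 difference of 3.56. For both genes the treated array was far above the control array, well beyond the spot error.

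Clec4n, which encodes the mannan receptor Dectin-2, had 33.7% in treated and 14.0% in control back skin, a log2 difference of 1.27. Clec5a, whose product signals through the adaptor Tyrobp, had 65.7% in treated and 11.3% in control back skin, a log2 difference of 2.54. The other 2 Clec5a probes were not well above background on any array, and the mean over its 3 probes gave 1.47.

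Clec4a2, whose product carries an inhibitory motif, had 6.55% in treated and 1.79% in control back skin, a log2 difference of 1.87. The other Clec4a2 probes were not well above background on any array, and the mean over its 3 probes gave 1.52. Clec4b1, whose product pairs with the Fc receptor gamma chain, had 3.46% in treated and 1.23% in control back skin, 2.83-fold higher. Clec4a3 had 3.60% in treated back skin and was not well above background in control back skin, which makes it at least 3.32-fold higher. All of these belong to the same run of neighbouring Clec4 genes.

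Among Toll-like receptors, Tlr1, Tlr4 and Tlr6, which recognise bacterial lipids and lipopeptides, were higher in treated back skin. Tlr6, a partner of Tlr2 for lipopeptides, had 37.8% in treated and 1.63% in control back skin, a log2 difference of 4.54 (23.2-fold). Its neighbour in the genome, Tlr1, which also pairs with Tlr2, had 4.02% in treated back skin and was at least 3.71-fold higher. Tlr2 itself had 62.9% in treated and 48.0% in control back skin, a log2 difference of 0.39.

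Tlr4, the receptor for lipopolysaccharide, had 15.2% in treated and 1.91% in control back skin, a log2 difference of 3.00 with a spot error of 0.27. With normexp the Tlr4 difference was 1.92. Cd14, which hands lipopolysaccharide to Tlr4, had 141% in treated and 26.8% in control back skin, a log2 difference of 2.40. Ly96, the Tlr4 partner that binds this ligand, had 116% in treated and 214% in control back skin, a log2 difference of -0.88. Tlr7, an endosomal receptor for single-stranded RNA, had 1.67% in treated back skin and was not well above background in control back skin, a bound of at least 1.54-fold. It did not reach the 2-fold call.

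The 3 members that were lower in treated back skin were Tlr9, Clec16a and Clec2g. Tlr9, the endosomal receptor for unmethylated DNA, had 262% in treated and 1367% in control back skin, a log2 difference of -2.39. Clec16a, an endosomal protein of mitochondrial clearance named for a lectin-like domain, had 33.0% in treated and 111% in control back skin, a log2 difference of -1.75.

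Clec2g, one of the ligands of natural killer receptors, had 52.6% in treated and 171% in control back skin, a log2 difference of -1.70. Its second probe gave a difference of -2.46. Both probes had the lower signal on the treated array. The relative Clec2d, ligand of an inhibitory natural killer receptor, had 329% in treated and 159.6% in control back skin, a log2 difference of 1.05, and 0.99 when arrays were centred on detected probes.

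The other 8 members measured on both back arrays differed by less than 2-fold. They were Clec10a at 0.45, Tlr2 at 0.39, Clec3b at 0.25, Clec11a at 0.17, Tlr3 at -0.11, Clec4g at -0.53, Myd88 at -0.53 and Clec2i at -0.83. Myd88 had 892% in treated and 1287% in control back skin. Clec4f, a receptor best known from Kupffer cells, had 1.59% in control back skin and was not well above background in treated back skin, a bound of at least 1.11-fold lower.

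**Figure D2:**
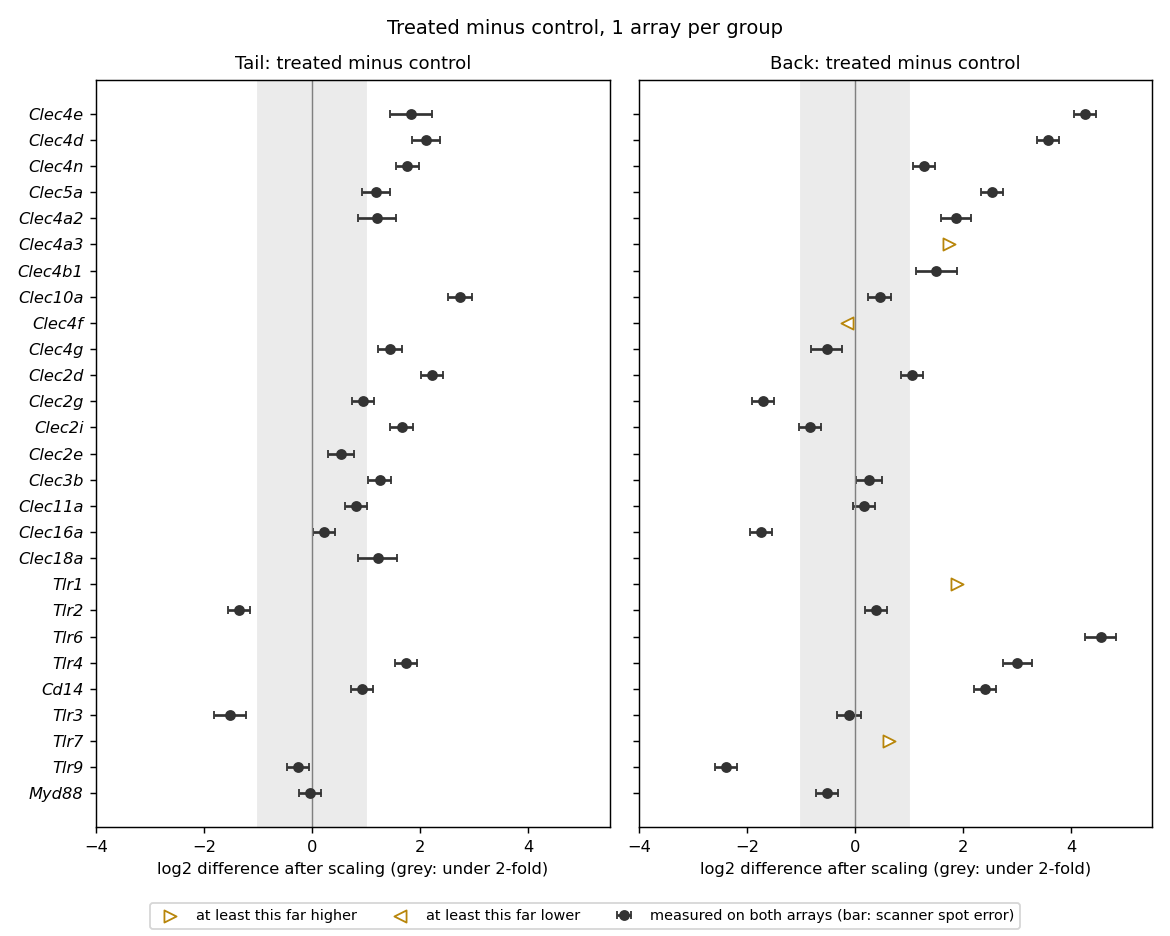
Log2 difference of treated minus control in tail (left) and back (right) for each member with a value, with 1 array per group. Bars are the scanner's spot error and cover no variation between animals, triangles are bounds, and the grey band is under 2-fold; in the back, Tlr6 at 4.54 and Clec4e at 4.25 stand farthest right and Tlr9 at -2.39 farthest left.

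Some markers of neutrophils and macrophages were also higher on the back treated array. Beside the marker counts for the back, 13.5% of all genes were higher and 12.8% lower. Of 11 neutrophil genes on the array, 8 had a value and 6 were higher, and their summed level was 165% in treated and 17.0% in control back skin. Retnlg was 44.2-fold higher and the receptor Csf3r at least 23.8-fold higher, while the granule genes Ngp and Camp were not well above background on either. Of 11 macrophage genes 5 were higher and none lower, with summed levels of 820.3% in treated and 319% in control back skin. Lyz2 was the largest part of both sums (509% in treated, 113% in control). The scavenger receptor Cd163 was at least 39.5-fold higher, whereas Adgre1 differed by 0.31 and Csf1r by -0.62.

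Of 9 Langerhans and dendritic cell genes with a value, 6 were lower and none higher, with summed levels of 1612% in treated and 4425% in control back skin. Epcam was the largest part of both sums (674% in treated, 2092% in control). Of 6 T and natural killer cell genes with a value 5 were lower, with summed levels of 56.3% in treated and 926% in control back skin. Cd3e (20.6% in treated, 579% in control) and Cd4 (9.92% in treated, 285% in control) carried most of the control sum, while Cd3d, Cd3g and Nkg7 were 1.97-fold, 2.65-fold and 2.57-fold lower. Of 4 platelet genes 3 were higher, with summed levels of 769% in treated and 32.0% in control back skin. The part of these cells in the differences of the receptor genes was not tested.

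Other marker lists in the back gave 3 of 4 endothelial genes higher, 3 of 6 fibroblast genes higher and 1 lower, 2 of 4 muscle genes higher, 1 of 4 mast cell genes higher and 1 lower, and 1 of 4 B cell genes higher and 1 lower.

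In treated tail skin the lectins Clec10a, Clec2d and Clec4d stood highest above control, and Tlr2 and Tlr3 were lower. In the tail 12 of the 21 members that had a value were higher and 2 lower, beside 27.2% and 6.56% of all genes, and the median was 1.19 against 0.33 over all genes. All 21 values were measured on both arrays. Cyclic loess, a normalization that evens out intensity-dependent shifts, left 7 of 23 members higher and 3 lower, beside 13.9% and 12.4% of all genes. The median was then 0.59 against -0.08 over all genes. Of the 12 members, 6 stayed over 2-fold under cyclic loess. Over all genes, the share of calls that were higher was 80.6% with the 75th percentile and 52.9% with cyclic loess. Scaling to 6 spike-in probes left none of 23 members higher and 9 lower in the tail, beside 0.91% and 71.5% of all genes. The higher calls in the tail are thus relative to the signal of the whole array. In the back, 10 of the 12 higher members kept their call under spike-in scaling. This scaling lowers every treated minus control difference of a skin by the same amount, so lower calls could not be lost under it. Of the 15 members without a tail value, 13 were not well above background on either array. The other 2, Clec14a and Clec2h, were well above background on the tail control array alone and gave no bound.

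The 6 members that stayed over 2-fold in the tail were Clec10a, Clec2d, Clec4d, Clec4n, Tlr4 and Clec2i. Clec10a, a macrophage and dendritic cell receptor for galactose sugars, had 6.89% in treated and 1.04% in control tail skin, a log2 difference of 2.73 (6.64-fold), and 2.06 after cyclic loess. Clec2d had 300.3% in treated and 64.6% in control tail skin, a log2 difference of 2.22, and 2.31 after cyclic loess. Clec4d had 3.91% in treated and 0.909% in control tail skin, a log2 difference of 2.11, and 1.25 after cyclic loess.

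Clec4n had 7.71% in treated and 2.28% in control tail skin, a log2 difference of 1.76. Tlr4 had 14.5% in treated and 4.36% in control tail skin, a log2 difference of 1.73. Clec2i, another natural killer receptor ligand, had 60.1% in treated and 19.1% in control tail skin, a log2 difference of 1.65. After cyclic loess all 3 stayed over 2-fold, with Tlr4 at 1.25 and Clec2i at 1.55.

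The other 6 members called in the tail were under 2-fold after cyclic loess. Clec4e had 1.43% in treated and 0.402% in control tail skin, a log2 difference of 1.83 with a spot error of 0.39, and 0.59 after cyclic loess. Before scaling, its signal was 13.0 in treated tail skin, where signals counted as well above background from 10.3 up, and 29.2 in control tail skin, where they did so from 22.3 up. The tail values of Clec4e thus rest on signals just above background on both arrays.

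The remaining 5 were Clec4g at 1.43, Clec3b at 1.24, Clec18a at 1.21, Clec4a2 at 1.19 and Clec5a at 1.18, which stood between 0.10 and 0.81 after cyclic loess. Clec4g encodes a sinusoidal endothelial lectin, and Clec3b encodes tetranectin, which binds plasminogen.

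Tlr2 and Tlr3 were the members that were lower in treated tail skin. Tlr2 had 18.1% in treated and 46.4% in control tail skin, a log2 difference of -1.36, and -1.40 after cyclic loess. Tlr3, the endosomal receptor for double-stranded RNA, had 1.51% in treated and 4.35% in control tail skin, a log2 difference of -1.53, and its second probe gave -1.55. With normexp background correction and an offset of 50 the signs turned, to 0.26 for Tlr2 and 3.18 for Tlr3. The offset is a larger share of the 75th percentile on the tail treated array than on the tail control array, where it is 0.689%.

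The 7 members under 2-fold in the tail were Clec2g at 0.95, Cd14 at 0.92, Clec11a at 0.80, Clec2e at 0.53, Clec16a at 0.21, Myd88 at -0.05 and Tlr9 at -0.27. After cyclic loess Clec2g stood at 1.08 and Tlr9 at -1.11, over 2-fold in size. The second probe of Clec2e was not well above background on the tail treated array, with 1.76% on the tail control array.

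Some markers of other cell types were also higher in treated tail skin, as scaled to the 75th percentile. Over all genes 27.2% were higher and 6.56% lower with this scaling, and 13.9% and 12.4% after cyclic loess. Neutrophil genes were higher in 4 of 5 cases, with summed levels of 24.4% in treated and 11.9% in control tail skin, and Csf3r, Mmp8, Ngp, Camp and Fpr2 were not well above background on either array. Macrophage genes were higher in 4 of 8 cases, with summed levels of 102% in treated and 52.0% in control tail skin. Langerhans and dendritic cell genes were higher in 1 of 9 and lower in 2. T and natural killer cell genes were higher in 3 of 6, B cell genes in 3 of 3, platelet genes in 4 of 5, endothelial genes in 4 of 5, mast cell genes in 2 of 4 and muscle genes in 4 of 5. Fibroblast genes were higher in 2 of 5 and lower in 1. After cyclic loess neutrophil genes were higher in 2 of 6 and lower in 1, macrophage genes higher in 4 of 8 and lower in 2, and platelet genes higher in 4 of 5. B cell genes were then higher in 1 of 4, muscle genes in 2 of 5, mast cell genes in 1 of 4, T and natural killer cell genes in 2 of 6 and endothelial genes in 3 of 5, and Langerhans and dendritic cell genes were higher in 1 of 9 and lower in 3. With spike-in scaling 4 of 9 macrophage genes were lower and 1 higher, 4 of 6 T and natural killer cell genes and 8 of 9 Langerhans and dendritic cell genes were lower with none higher, and platelet genes were higher in 2 of 5 and lower in 1. Over all genes 0.91% were higher and 71.5% lower in the tail under spike-in scaling. The part of these cells in the tail differences was not tested.

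**Figure D3:**
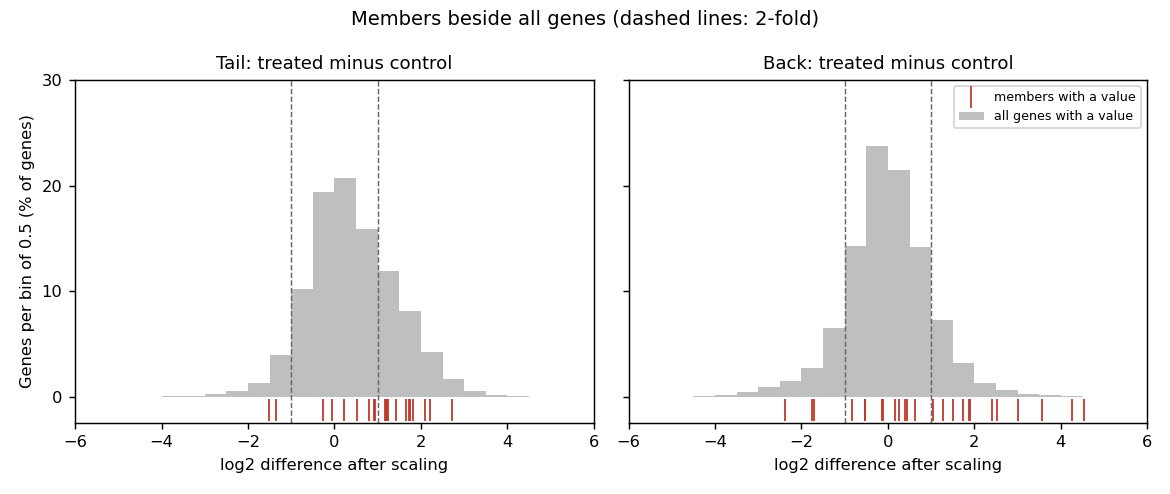
Percent of all genes with a value in each bin of 0.5 of the log2 difference (grey bars) with the members marked below (red ticks), for tail and back treated minus control. In the tail 27.2% of all genes lie at or beyond 2-fold higher, and in the back 13.5%.

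In all, 19 members had a value in both skins. Clec2d, Clec4a2, Clec4d, Clec4e, Clec4n, Clec5a and Tlr4 were higher in both, and none was lower in both or called in opposite directions in tail and back. Of these, Clec4a2, Clec4e and Clec5a were under 2-fold in the tail after cyclic loess. Clec10a, Clec2i, Clec3b and Clec4g were called higher in the tail alone and Cd14 in the back alone. Clec16a, Clec2g and Tlr9 were called lower in the back alone, and Tlr2 and Tlr3 in the tail alone. A call in 1 skin alone does not show that the skins differed. How often all genes were called in both skins or in 1 alone was not counted, so these groups do not set the members apart.

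The difference of the log2 differences, back minus tail, was 2-fold or more above 0 for 7 members and below 0 for 7. It was 2.43 for Clec4e, 1.75 for Tlr2, 1.48 for Cd14, 1.46 for Clec4d, 1.41 for Tlr3, 1.36 for Clec5a and 1.27 for Tlr4. It was -2.65 for Clec2g, -2.48 for Clec2i, -2.28 for Clec10a, -2.12 for Tlr9, -1.96 for both Clec16a and Clec4g, and -1.17 for Clec2d. These counts depend on the processing: with spike-in scaling 10 members were above 0 by 2-fold or more and only Clec2g (-1.04) below, and with normexp none was above and 14 were below, Clec4e and Clec4d among them. No such counts were made over all genes, so they do not set the members apart from other genes. The light dose also differed between the skins, and shaving is stated only for the treated back. Site, dose and shaving therefore cannot be told apart.

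**Figure D4:**
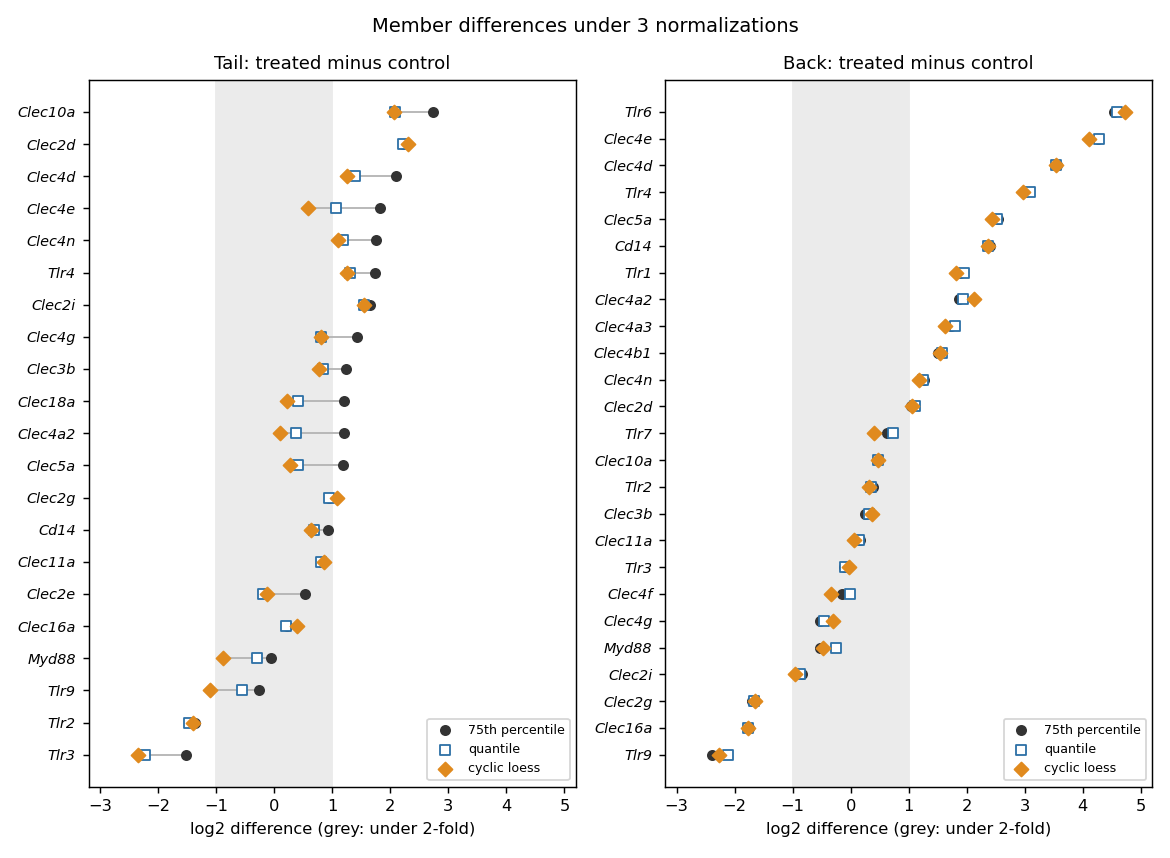
Log2 difference of treated minus control for each member under scaling to the 75th percentile, quantile normalization and cyclic loess, in tail (left) and back (right). In the tail Clec4e moves between 1.83 and 0.59, while in the back it stays between 4.10 and 4.27.

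The members also differed between the skins without treatment. Of 23 members with a value, 13 were higher in back control than in tail control skin and 2 lower, beside 27.4% and 17.2% of all genes. The median was 1.15 against 0.19. Clec4d differed by 5.01 and Clec4e by 4.61, Clec5a by 3.26, Clec10a by 3.21, Clec4n by 2.62 and Clec4a2 by 1.61. Cd14 differed by 1.35, Clec2d by 1.30, Clec2i by 1.15 and Myd88 by 1.13. Myd88 was under 2-fold with quantile normalization (0.64) and cyclic loess (0.28), and with spike-in scaling Cd14 (0.53), Clec2d (0.48), Clec2i (0.33), Myd88 (0.31) and Clec4a2 (0.79) were under 2-fold.

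Clec4f was at least 5.17-fold, Tlr6 at least 5.29-fold and Clec4b1 at least 3.99-fold higher in back control skin. The 2 lower members were the growth factor Clec11a at -1.80 and Tlr4 at -1.19, which was -0.02 with normexp. On the same arrays 9 of 10 macrophage genes and 9 of 9 Langerhans and dendritic cell genes were higher in back control skin, whose part was not tested. The tail control and back control arrays are also those of the treated comparisons above.

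Between the treated skins, 12 of 26 members were higher in the back and 7 lower, beside 15.8% and 20.6% of all genes. Clec4e differed by 7.03 and Clec4d by 6.46 between back treated and tail treated skin. Tlr6 was at least 33.5-fold higher in back treated skin, Clec5a differed by 4.62 and Cd14 by 2.83, while Tlr4 differed by 0.07. Clec11a differed by -2.44, Clec2g by -1.66, Clec16a by -1.59, Clec3b by -1.49, Clec2i by -1.33, Clec4g by -1.21 and Tlr9 by -1.16. With normexp Clec4e stood at 1.99, Clec4d at 2.43 and Clec5a at 0.53, and the counts turned to 4 higher and 12 lower. With spike-in scaling only Clec11a (-1.65) of the lower members passed 2-fold.

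The genes that act with the receptors were described from lists of their partners. With spike-in scaling every one of these 8 lists had more tail genes lower than higher. In the back this held for those of coreceptors, adaptors, transcription factors, inhibitors and other lectins. Over all genes this scaling gave 0.91% higher and 71.5% lower in the tail, and 6.48% and 25.0% in the back. More lower than higher was thus the direction of the whole array. Unless another processing is named, the list counts below use the same scaling as the levels above. Over all genes that scaling gave 13.5% higher and 12.8% lower in the back, and 27.2% higher and 6.56% lower in the tail. Whether any list departed from these shares was not tested. Coreceptors and transport proteins of Toll-like receptors were higher in 1 of 4 cases in the back and in 2 of 5 in the tail, with none lower. The lipid receptor Cd36, a coreceptor of Tlr2, differed by 1.11 in the back and 2.33 in the tail. Ly96 differed by -0.19 in the tail.

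Of 14 adaptors and kinases with a value, 2 were higher and 3 lower in the back, and 1 was higher and none lower in the tail. Tirap, which brings Myd88 to Tlr2 and Tlr4, had 27.8% in treated and 6.16% in control back skin, a difference of 2.17. Irak2, a kinase of the Myd88 complex, differed by -1.52 in the back. The transcription factors were lower in 2 of 5 cases in the back and in 1 of 5 in the tail, with none higher. The NF-kB subunit Rel differed by -1.92 in the back and -3.75 in the tail.

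Inhibitors of the pathway were lower in 2 of 5 cases in the back, and higher in 1 of 5 and lower in 2 in the tail. Irak3, which restrains the Myd88 complex, differed by -2.17 in the back and -1.75 in the tail. Signalling proteins of the lectin receptors were higher in 2 of 10 cases in the back, and higher in 1 of 9 and lower in 1 in the tail. Syk had 22.0% in treated and 4.58% in control back skin, a difference of 2.26, against -0.02 in the tail. Tyrobp differed by 0.64 in the back, and Fcer1g by 0.96.

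For C-type lectins with other symbols, 3 of 15 were higher and 2 lower in the back, and 4 of 12 were higher and 2 lower in the tail. The hepatic-type lectin gene Asgr2 differed by 0.30 in the back and 2.34 in the tail. Endogenous ligands were higher in 3 of 7 cases in the back and none was lower, and 4 of 7 were higher and 1 lower in the tail. The extracellular matrix ligand gene Tnc had opposite signs, at 3.92 in the back and -2.22 in the tail. S100a8, saturated on both treated arrays, was at least 6.49-fold higher in the back and at least 44.9-fold higher in the tail. With normexp 4 of 7 ligands with a value were higher in the tail and none was lower. Cytokine targets of the receptors were higher in 6 of 11 cases in the back and none was lower, whereas in the tail 1 of 8 was higher and 4 were lower. With normexp 4 of 6 targets with a value were higher in the tail and none was lower. Over all genes normexp gave 44.2% higher and 4.14% lower in the tail. The summed level of the targets, scaled to the 75th percentile, was 7391% in treated and 1961% in control back skin. In the tail it was 45.1% in treated and 152% in control skin. Ccl4 (2043%), Ccl3 (1446%), Cxcl3 (1207%) and Ptgs2 (1075%) carried most of the back treated sum. Tnf (77.0%) was the largest part of the tail control sum.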

How the data were processed

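Total RNA was labelled with Cy3 from 200 ng and hybridised to 4 Agilent arrays, per the labels' protocols. Groups were taken from the sample titles. The deposited spot intensity was background-corrected by Feature Extraction 10.5.1.1 without normalization between arrays, per the file headers, whereas version 10.7 is named in the submitters' processing notes. The deposited flags for background, saturation and outlier spots are other columns of 0 or 1, per the file headers. The authors' deposited table holds log2 values with no account of how they were made. To within 0.001, array-to-array differences in it equalled those of log2 processed signal, shifted by 1 constant, for 99.7% of probes, so scale and direction are known; each probe is centred, with column medians of 0.099 (tail treated), -0.28 (tail control), 0.084 (back treated) and -0.031 (back control).

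Outlier spots were left out, repeated spots averaged, and the 75th percentile of 41174 probes without controls was subtracted per array on the log2 scale. Accessions named 24375 probes (59.2%) through RefSeq GRCm38.p6; the files name an older build. The brightest probe by mean log2 value represented a gene. With 1 array dim, the bound took as its level there either its own signal or the array's faintest signal well above background, whichever was higher. Spot error is the scanner's and covers spots only. The number of arrays limits the precision. Every member over 2-fold in a treated pair is named with its values; genes from partner and marker lists are named from the 3 largest differences of their list in either treated pair. Ly96, Tyrobp, Fcer1g, Adgre1, Csf1r, Cd3d, Cd3g, Nkg7, Ngp, Camp, Fpr2, Ccl4, Ptgs2 and the keratinocyte genes fall outside this rule, being picked with their values in view. Members and lists were chosen with earlier results of these data known. Calls were tested on simulated data with spot noise alone and changes at middle signals. Changes in faint signals, brightness differences between arrays and variation between animals were not covered. Python 3.11.15, pandas 2.3.3, R 4.3.3 and limma 3.58.1 were used. Alternatives are given in the closing section.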

Additional observations from a re-analysis of the deposited data

Results flagged for a closer look

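Clec2g and Clec2i, neighbouring genes for ligands of natural killer cell receptors, had differences of opposite sign in the skins, each beyond its spot error, when arrays were scaled to the 75th percentile. The back difference minus the tail difference was -2.65 for Clec2g, from -1.70 in the back and 0.95 in the tail. It was -2.48 for Clec2i, from -0.83 in the back and 1.65 in the tail. With spike-in scaling the signs were no longer opposite: Clec2g stood at -2.16 in the back and -1.12 in the tail, and Clec2i at -1.29 in the back and -0.42 in the tail. With 1 array per group the difference between the skins was not tested.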

How the results depend on the processing

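Each pair was recomputed under 11 alternatives fixed in the plan, and counts of members are given as higher and lower. In the tail (12 and 2 members) the count of higher members was 7 with quantile normalization, 7 with cyclic loess, 22 with no filter, 2 when only signals from 200 up on both arrays were used, and 0 with spike-in scaling. The count of lower members was 0 with normexp, 0 with the minimum of 200 and 9 with spike-in scaling, and normexp turned Tlr2 to 0.26 and Tlr3 to 3.18. In the back (12 and 3) it was 5 higher with a signal of at least 200, where 12 members had a value, and 5 lower with no filter. The 3 lower members kept their call under all 11. Dropping the bounds or the background filter could not change their values, and spike-in scaling could only lower them. The authors' table holds the same signal shifted by a constant. The 12 higher members kept their call under quantile normalization and cyclic loess. Normexp took Clec4b1 to 0.90 and centring on detected probes took Clec2d to 0.99. Between untreated skins (13 and 2) it was 24 higher with no filter, 4 higher and 1 lower with a signal of at least 200, 8 higher and 4 lower with spike-in scaling, and 1 lower with normexp. Between treated skins (12 and 7) it was 4 higher and 12 lower with normexp, 0 higher with a signal of at least 200, and 1 lower with spike-in scaling. Spike-in scaling, from 6 probes, adds -2.07 to every tail difference, -0.46 to every back difference, -0.82 between untreated skins and 0.79 between treated skins, so differences above are relative to each array's own 75th percentile. A signal of at least 200 leaves fewer members with a value, and no filter counts members below background. Other causes were not tested. No other member past 2-fold in a treated pair changed sign outside spike-in scaling; of those under 2-fold, Clec2e in the tail (-0.13 with cyclic loess, -0.20 with quantile normalization, -0.84 with the mean of probes) and Clec4g and Tlr3 in the back (0.13 and 0.12 with normexp) did. No paired analysis was possible because each group has 1 array, and no replicate could be left out.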

Other observations

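Podoplanin (Pdpn), the ligand of the platelet receptor gene Clec1b, had 63.3% in treated and 2.35% in control back skin, a log2 difference of 4.75, and was at least 1.07-fold lower in treated than in control tail skin. Clec1b itself was not well above background on any array, although the platelet chemokine gene Ppbp was at least 147-fold higher in treated back skin.

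The Langerhans lectin gene Cd207 and the macrophage mannose receptor gene Mrc1, both C-type lectins with other symbols, differed in opposite directions in the back. Cd207 had 107% in treated and 342% in control back skin, and Mrc1 had 43.9% in treated and 4.32% in control back skin.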
